A study of Mus musculus with 21 samples.

Results

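Mature sperm and metaphase II oocytes of the mouse were compared at the level of genes and of isoforms. The comparison used 4 of the 14 short-read libraries of a series on gametes and preimplantation embryos (2 of sperm and 2 of oocytes), chosen by the cell type in their labels, and 2 of its 7 long-read libraries (1 pool of sperm and 1 pool of oocytes). Sperm came from the epididymis of males whose strain is given as DBA/2J. Oocytes came from females labelled C57/BL6J, 3 to 5 weeks old, which had received 7.5 IU of PMSG and, 48 h later, 7.5 IU of hCG. Both hormones together make many follicles ovulate at once, and the eggs were taken 20 h after hCG. No gene was deleted and no other agent was given in either group. RNA of both gametes was turned into cDNA and amplified by Smart-seq2, a method for small inputs that copies polyadenylated RNA. Each library was made from pooled cells, and the labels do not tie the replicates to separate animals. Cell type, sex and strain differ together between the groups and cannot be told apart.

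Both gametes store RNA that they did not make recently. A spermatid stops transcription when protamines replace its histones, and a sperm sheds most of its cytoplasm, so it keeps remnants of messages made earlier in the testis. A growing oocyte makes and stores the messages that carry the egg through meiosis and the first divisions, and transcription has stopped by metaphase II. Values here are TPM, in which the reads of a transcript are scaled by its length and by the library's total. TPM values do not carry the number of reads behind them, so no counting error is given for a level. In bulk libraries, fewer cells of a type and less RNA per cell cannot be told apart.

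The labels were first checked with marker genes. The 8 sperm markers, among them the protamines Prm1 and Prm2, summed to 17568 and 21264 TPM in the sperm libraries and to 6.97 and 4.24 TPM in the oocyte libraries. The 8 oocyte markers, among them the zona pellucida genes Zp1, Zp2 and Zp3, summed to 9.97 and 20.4 TPM in sperm and to 4695 and 16050.0 TPM in oocyte. The groups did not overlap in either sum.

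The sperm libraries also held markers of other cells. The 11 leukocyte markers summed to 78456 and 16332 TPM in sperm, against 25.9 and 6.07 TPM in oocyte. Of these, Cd74, the invariant chain of MHC class II, stood at 71096 and 14459 TPM in sperm. The lysozyme gene Lyz2 was at 6151 and 1519 TPM, and the pan-leukocyte gene Ptprc at 35.2 and 7.07 TPM. The T cell gene Cd3e was near 0 in both sperm libraries, at 0.77 and 0.74 TPM. Each of the 11 leukocyte markers had a long-read transcript in the sperm pool, and 0 had one in the oocyte pool.

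Of the 12 epididymal markers, 7 were found among the transcripts, and they summed to 2850 and 414 TPM in sperm and to 0.80 and 0.06 TPM in oocyte. The secreted protein gene Crisp1 gave most of this sum, at 2006 and 335 TPM. The 4 erythroid markers found, of 5, summed to 2146 and 4795 TPM in sperm and to 1.35 and 0 TPM in oocyte. The 5 stromal markers found, of 9, summed to 344 and 261 TPM in sperm and to 1.07 and 0.13 TPM in oocyte. Of 7 Sertoli and Leydig cell markers 0 were found, and the 2 cumulus cell markers found, of 13, summed to at most 0.24 TPM in oocyte. No somatic list summed to more than 25.9 TPM in an oocyte library, while leukocyte, erythroid, epididymal and stromal markers each summed to 261 TPM or more in both sperm libraries. Values exist only for markers whose transcripts were found by long reads, and of the cumulus cell markers these were 2 of 13. The low sums therefore do not show that the oocyte libraries were free of other cells. The part of leukocytes and other somatic cells in the genes called higher in sperm was not tested.

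**Figure D1:**
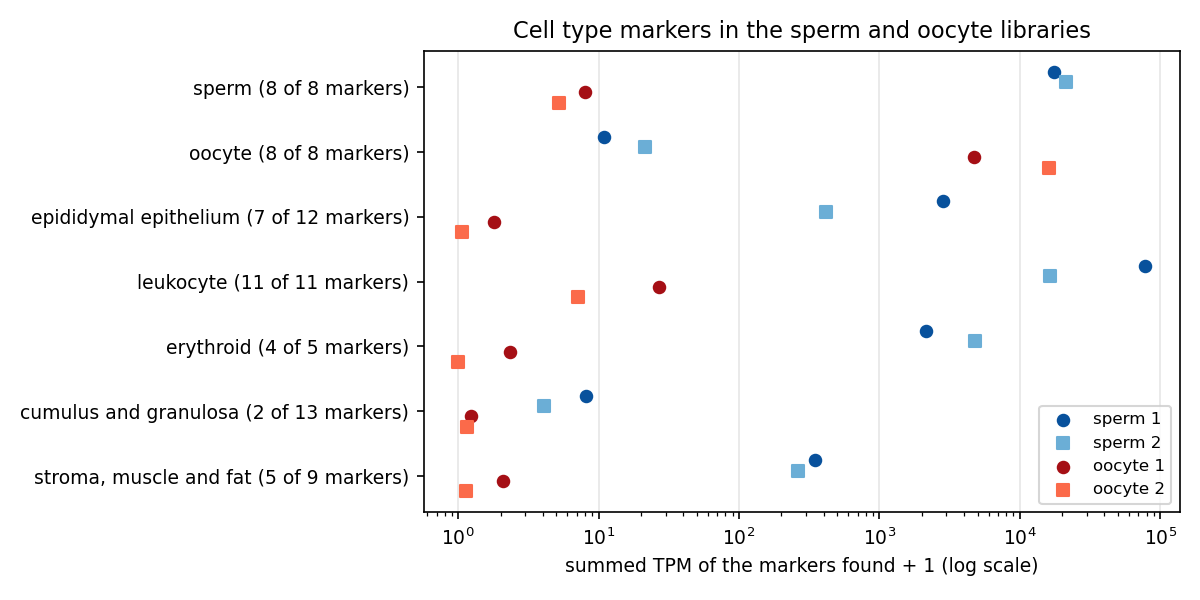
Summed TPM of each cell type's marker genes (plus 1, log scale) in each sperm and oocyte library, 1 point per library. Sperm markers reach 17568 and 21264 TPM in sperm and oocyte markers 4695 and 16050.0 TPM in oocyte. Leukocyte, erythroid, epididymal and stromal markers lie at 261 TPM or more in both sperm libraries and at 25.9 TPM or less in both oocyte libraries.

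The sperm libraries were less alike than the oocyte libraries. Across 9931 genes, Pearson's r of log2(TPM + 1) was 0.73 between the sperm replicates, 0.91 between the oocyte replicates and 0.02 to 0.17 between a sperm and an oocyte library. These values describe the libraries, and genes are not independent replicates. At least 1 TPM was reached by 9554 and 9237 genes in sperm and by 7049 and 6972 genes in oocyte. The 10 most abundant genes held 29.8% of the TPM in sperm replicate 1, against 13.9% in sperm replicate 2 and 18.1 and 19.6% in the oocytes. Transcripts that overlap no annotated gene on their strand held 6.73 to 18.2% of the TPM.

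More genes were called higher in sperm than in oocyte. Of the 9931 genes tested, 3670 (37.0%) were higher in sperm and 1537 (15.5%) were higher in oocyte by limma at an adjusted p under 0.05, and 4724 were not called. Among the 3670 the median difference was 3.57 on the log2(TPM + 1) scale, and among the 1537 it was -3.70. Of the genes higher in sperm, 645 were listed at 0 in both oocyte libraries, and 48 of the genes higher in oocyte were listed at 0 in both sperm libraries. Their log2 values depend on the pseudocount and enter these medians. In each called gene both libraries of one gamete lay above both of the other, which held for 49.4% of all genes tested in the direction of sperm and for 27.5% in the direction of oocyte.

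The size of this asymmetry depended on the scaling. The median difference over all genes tested was 1.08 toward sperm on the TPM scale and 0.10 after quantile normalization, which gives the 4 libraries the same distribution. Quantile normalization called 2012 genes (20.3%) higher in sperm and 2133 (21.5%) higher in oocyte, so the larger group turned from sperm to oocyte. Of the 3670 genes higher in sperm 2011 were called by both, and of the 1537 genes higher in oocyte 1528 were. Differences given below are on the TPM scale and are to be read against the shift of 1.08.

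The counts also rested on both libraries of each gamete. Without oocyte replicate 1 the count of genes higher in sperm was 635, and without oocyte replicate 2 it was 487. Without either sperm replicate it was 2695 and 2750. The count higher in oocyte was 294 without sperm replicate 1, 237 without sperm replicate 2, 578 without oocyte replicate 1 and 528 without oocyte replicate 2. Each such fit compares 1 library with 2 and assumes that the lone library varies like the others.

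**Figure D2:**
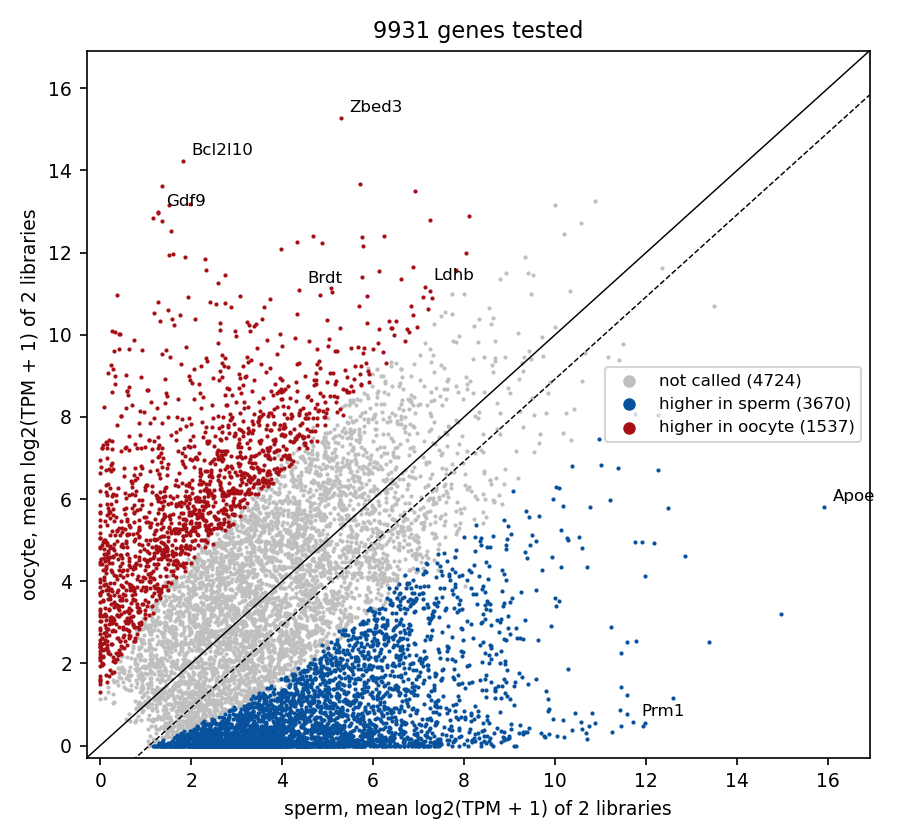
Mean log2(TPM + 1) of each of the 9931 genes tested in sperm (x axis) and oocyte (y axis), 1 point per gene. Blue points are the 3670 genes higher in sperm, red points the 1537 higher in oocyte and grey points the 4724 not called. The solid line is equality and the dashed line the median difference of 1.08. Blue points crowd along the bottom edge, where the oocyte level is near 0.

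The sperm and oocyte libraries were led by different genes, and the 10 with the highest mean TPM in sperm held no gene of the sperm lists described below. Apoe, which encodes a lipid carrier protein, led with 101627 and 37548 TPM in sperm, against 177 and 16.5 TPM in oocyte. It was higher in sperm by 10.11 (SE 1.63, limma adjusted p = 0.00065). Cd74 followed, with the TPM given above and 22.3 and 2.59 TPM in oocyte. The phosphatase gene Dusp1 came next by its mean, at 35906 and 3753 TPM in sperm and 4411 and 626 TPM in oocyte. Its groups overlapped, and it was not called (difference 2.80, SE 1.84, limma adjusted p = 0.22). The 7 other genes among the 10 highest in sperm were Nupr1l, H2-Ab1, Hist2h2aa2, Fth1, Cst3, Ubb and Pebp1. Of these, the ubiquitin gene Ubb was at 10638 and 2552 TPM in sperm and 5691 and 1745 TPM in oocyte. Its groups overlapped too, and it was not called.

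The 10 largest differences toward sperm mixed germ cell genes with genes of blood and immune cells. Cd74 differed by 11.77 (SE 1.44, limma adjusted p = 0.000198). The MHC class II gene H2-Ab1 was at 2423 and 15947 TPM in sperm and 3.09 and 0.23 TPM in oocyte, a difference of 11.44 (SE 1.25, limma adjusted p = 0.000144). The MHC class I gene H2-D1 was at 980.2 and 7839 TPM against 2.04 and 0.11 TPM. In each of these genes both sperm libraries lay far above both oocyte libraries, although the sperm libraries themselves differed several-fold. The alpha globin gene Hba-a1 was at 1803 and 4384 TPM in sperm and 0.95 and 0 TPM in oocyte. Lyz2 was at 1.11 and 0.37 TPM in oocyte. The remaining genes were the transition protein and protamine genes Tnp2 and Prm1, 1700003F12Rik, Gm6760 and Nupr1l. Cd74, Lyz2 and Hba-a1 are themselves in the leukocyte and erythroid marker sums given above, so those sums are no separate check of them. H2-Ab1 and H2-D1 are not in the sums. Both were higher in sperm replicate 2 than in sperm replicate 1. The part of other cells in these genes was not tested. Without 1 library at a time, limma called Tnp2, Prm1, H2-Ab1, H2-D1, Hba-a1, Lyz2, 1700003F12Rik and Gm6760 every time, while Apoe was called in 0 of the 4 fits and Cd74 and Nupr1l only without oocyte replicate 1.

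In oocyte the most abundant genes were maternal ones. Zbed3, a member of the subcortical maternal complex, had 24172 and 64679.9 TPM in oocyte and 36.0 and 40.3 TPM in sperm. Bcl2l10, a Bcl2 family gene of the oocyte, was at 16455 and 22401 TPM against 3.03 and 2.11 TPM. It had the largest difference toward oocyte, of -12.41 (SE 1.17, limma adjusted p = 0.000109). The next were Slbp, whose protein binds the stem-loop of histone messages, Hpf1, the oocyte linker histone gene H1foo and Tcl1. Slbp was at 6286 and 21095 TPM in oocyte and 42.0 and 335 TPM in sperm, and its call was lost without any 1 of the 4 libraries. Oaz1 and its processed pseudogene Oaz1-ps were also among the 10 highest. These are near-identical copies between which reads may be split, so their values are uncertain, and neither was called.

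The other genes with the largest differences toward oocyte were Gdf9, C86187, E330021D16Rik, Dppa3, D6Ertd527e, Btg4 and AU022751, besides H1foo and Tcl1. C86187, annotated as a lincRNA on chromosome 7, was at 4820 and 13059 TPM in oocyte and 0.28 and 3.45 TPM in sperm. Its difference was -11.70 (SE 1.19, limma adjusted p = 0.000109). E330021D16Rik was at 4165 and 12794 TPM in oocyte and at 0.75 and 1.87 TPM in sperm. For these 10 genes the call held without each library in turn.

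The genes that pack sperm chromatin had the largest median difference toward sperm of the lists described here. Of 10 tested protamine, transition protein and testis histone genes, 9 (90.0%) were higher in sperm and 1 (10.0%) was higher in oocyte. The shares over all genes tested were 37.0 and 15.5%. The median difference of the list was 5.90, against 1.08 over all genes tested. Prm1, at chr16:10796326-10805839 of mm10, was at 1842 and 6156 TPM in sperm and 1.21 and 0 TPM in oocyte, a difference of 11.15 (SE 1.12, limma adjusted p = 0.000109). Prm2 was at 9070.5 and 869 TPM in sperm and 3.40 and 4.16 TPM in oocyte, a difference of 9.20 (SE 1.27, limma adjusted p = 0.000312). Tnp2, which takes the place of histones before the protamines do, was at 2448 and 6336 TPM in sperm and 0.94 and 0 TPM in oocyte. All 3 genes were high in both sperm libraries, but sperm replicate 2 held more Prm1 and Tnp2 and sperm replicate 1 more Prm2. The testis gene Tsga8 was at 51.1 and 320 TPM in sperm and 0.07 and 0 TPM in oocyte. Hist1h2aa went the other way, at 28.3 and 67.9 TPM in oocyte and 0.52 and 3.35 TPM in sperm (difference -4.13, SE 1.03, limma adjusted p = 0.0059). Its call was lost without any 1 library. With oocyte replicate 1 or 2 left out, 7 and 6 of the 10 genes were still called higher in sperm.

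The start regions of 3 gamete genes are shown because Prm1, Prm2 and Zp3 mark the male and the female side of the comparison. The 250 bases before the RefSeq start are given 5' to 3' on the gene's strand, from the GRCm38.p6 assembly, and capitals mark a motif described below each set. For Prm1 (chr16:10796824-10797073, minus strand) and Prm2 (chr16:10792106-10792355, minus strand) a transcript of the study's merged set starts at the RefSeq start.
Prm1: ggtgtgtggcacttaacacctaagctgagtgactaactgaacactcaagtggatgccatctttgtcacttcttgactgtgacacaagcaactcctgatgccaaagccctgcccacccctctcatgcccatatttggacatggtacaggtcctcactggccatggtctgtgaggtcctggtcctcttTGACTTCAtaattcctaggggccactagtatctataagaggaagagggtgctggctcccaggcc
Prm2: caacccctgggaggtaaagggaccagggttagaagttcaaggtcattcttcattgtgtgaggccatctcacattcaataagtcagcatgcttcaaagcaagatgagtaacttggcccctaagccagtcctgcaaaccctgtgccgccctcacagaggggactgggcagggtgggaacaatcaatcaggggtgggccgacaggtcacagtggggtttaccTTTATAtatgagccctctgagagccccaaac
The capitals in Prm1 are a match to TGACNTCA, the CRE-like element that the spermatid activator CREM is known to bind, whose first base lies 64 bases before the start. The capitals in Prm2 are a match to TATAAA read on the other strand, 31 bases before the start. Zp3 (chr5:135979855-135980104, plus strand) has 3 matches to the E-box CANNTG, at 181, 134 and 55 bases before its start.
Zp3: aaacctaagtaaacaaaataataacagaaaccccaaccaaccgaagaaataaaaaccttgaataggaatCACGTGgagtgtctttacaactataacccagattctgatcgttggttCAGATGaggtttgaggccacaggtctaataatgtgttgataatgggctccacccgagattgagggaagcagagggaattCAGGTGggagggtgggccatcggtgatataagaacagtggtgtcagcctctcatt

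Such matches are common. With both strands searched, TGACNTCA lay in 8.76% of the 2740 windows of genes higher in sperm, 5.80% of the 1137 windows of genes higher in oocyte and 7.00% of the 7546 windows of genes tested. TATAAA lay in 8.50, 6.6 and 7.04% of these windows, and CANNTG in 60.2, 59.0 and 57.7%. TAATTG, the core of the element bound by the oocyte factor NOBOX, lay in 3.43, 6.42 and 4.24%. Over all 27018 windows listed the shares were 7.59% for TGACNTCA, 13.0% for TATAAA, 66.1% for CANNTG and 7.34% for TAATTG. A ratio of observed to expected CpG over 0.5 was found in 62.4% of the windows of genes higher in sperm, 69.7% of those higher in oocyte and 83.6% of those not called. These shares are descriptions, and a match is not a site. The windows of Tnp2 and Tcl1 were searched too and are not shown. Tnp2 had no match to TGACNTCA or TATAAA, and its match was to TAATTG, 240 bases before the start. Tcl1 had an E-box 21 bases before its start. Prm1 had no match to TATAAA, and Prm2 had no match to TGACNTCA.

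Genes of the flagellum were also higher in sperm. Of 24 tested, 22 (91.7%) were higher in sperm and 0 in oocyte, against 37.0 and 15.5% of all genes tested. The median difference was 4.15. The outer dense fibre gene Odf1 was at 485 and 7373 TPM in sperm and 1.02 and 0.08 TPM in oocyte, a difference of 10.33 (SE 1.28, limma adjusted p = 0.000205). Smcp, a gene of the mitochondrial sheath, was at 3313 and 418 TPM in sperm and 0.33 and 0 TPM in oocyte. The kinase gene Tssk6 was at 8104 and 1162 TPM against 4.20 and 0.05 TPM. In each case both sperm libraries lay above both oocyte libraries, although the sperm libraries differed severalfold among themselves. Ropn1l, a fibrous sheath gene, was at 281 and 1689.9 TPM in sperm and at 0.57 and 0.16 TPM in oocyte. The members not called were the dynein gene Dnah8, at 74.1 and 23.0 TPM in sperm and 58.2 and 34.0 TPM in oocyte, and the tektin gene Tekt4. Quantile normalization called 17 of the 24 higher in sperm. Without oocyte replicate 1 the count was 6, and without oocyte replicate 2 it was also 6.

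The sperm side of egg binding was the next group. Of 15 tested genes of the acrosome, zona binding and fusion, 13 (86.7%) were higher in sperm and 0 in oocyte, with a median difference of 3.96. The shares over all genes tested were 37.0 and 15.5%. Acr, which encodes the acrosomal protease acrosin, was at 228 and 76.6 TPM in sperm and 0.05 and 0 TPM in oocyte (difference 7.03, SE 1.01, limma adjusted p = 0.000372). Izumo4 was at 294 and 434 TPM in sperm and 8.88 and 0.07 TPM in oocyte. Spaca1, an acrosomal membrane gene, was at 37.3 and 372 TPM against 0.82 and 0.11 TPM. Both sperm libraries were the higher ones for each of these genes. Crisp2 was at 183 and 46.4 TPM in sperm and was listed at 0 in both oocyte libraries. The activating phospholipase gene Plcz1 was at 12.5 and 1.84 TPM in sperm and listed at 0 in both oocyte libraries. Dcst2 and 4930451I11Rik were not called. Without oocyte replicate 1 and without oocyte replicate 2, 4 and 2 of the 15 were called.

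Regulators of spermatid gene expression were mostly higher in sperm. Of 14 tested, 12 (85.7%) were higher in sperm, 1 (7.14%) in oocyte and 1 was not called, against 37.0 and 15.5% of all genes tested. The median difference was 4.11. The basic helix-loop-helix gene Spz1 was at 330.1 and 38.9 TPM in sperm and was listed at 0 in both oocyte libraries. Tbpl1, a relative of the TATA-binding protein, was at 105 and 710.1 TPM in sperm and 14.8 and 22.8 TPM in oocyte, a difference of 3.83 (SE 1.18, limma adjusted p = 0.016). Crem, the activator of many spermatid genes, was at 29.7 and 48.5 TPM in sperm and 0.67 and 0.88 TPM in oocyte. Piwil1, which is known for its part in piRNA function in spermatids, was at 202 and 33.6 TPM in sperm and 57.3 and 49.7 TPM in oocyte. Its groups overlapped and it was not called. Without oocyte replicates 1 and 2, 1 and 2 of the 14 were called higher in sperm.

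Brdt, a testis bromodomain gene, went against the list. It was at 3517 and 1361 TPM in oocyte and 26.7 and 14.6 TPM in sperm, a difference of -6.72 (SE 1.19, limma adjusted p = 0.00103). Its 3 merged transcripts end at 107350745 or 107359009 on chromosome 5, while the annotated gene spans 107331159 to 107387058, so the transcripts measured cover only its 5' part. The transcript with the highest level, of 7 exons and 1594 bases, was at 2587 and 1058 TPM in oocyte and 12.1 and 7.66 TPM in sperm. The call was kept without either oocyte library and lost without either sperm library.

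**Figure D3:**
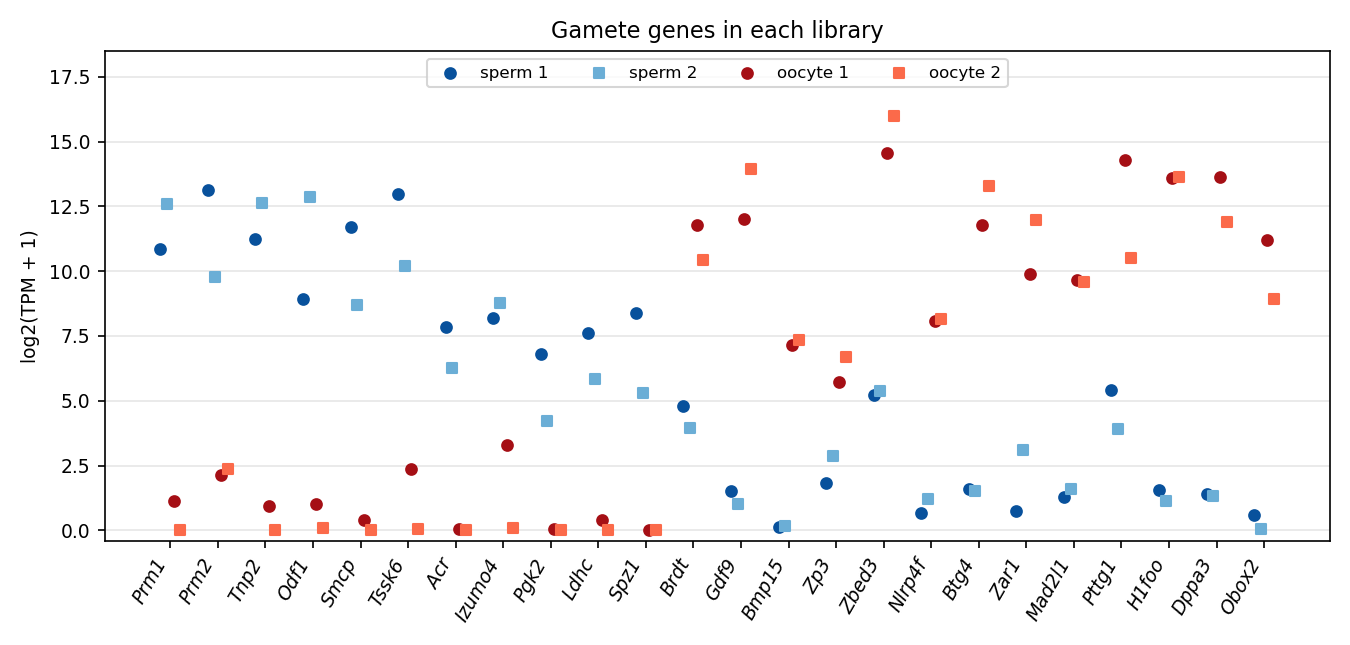
log2(TPM + 1) of selected gamete genes in each of the 4 libraries. From Prm1 to Spz1 both sperm libraries (blue) lie above both oocyte libraries (red), and from Brdt to Obox2 the order is turned. The sperm points of 1 gene often lie several units apart.

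Sperm have their own isozymes of glycolysis, which supplies ATP along the tail. All 8 tested genes of the list of these isozymes were higher in sperm, against 37.0% of all genes tested. Their median difference was 5.29. The list also holds genes that are not confined to germ cells, among them Hk1 and Pgam2. Ldhc, the lactate dehydrogenase of germ cells, was at 197 and 56.8 TPM in sperm and 0.33 and 0 TPM in oocyte (difference 6.54, SE 1.02, limma adjusted p = 0.000558). Pgk2, an intronless phosphoglycerate kinase, was at 110 and 17.8 TPM against 0.04 and 0 TPM. The hexokinase gene Hk1 was at 72.5 and 566 TPM against 0.22 and 0 TPM. Pgam2 was at 232 and 43.8 TPM in sperm and was listed at 0 in both oocyte libraries. Each had both sperm libraries above both oocyte libraries. Without oocyte replicates 1 and 2, 4 and 3 of the 8 were called. The somatic markers given above were high in the same libraries, and their part was not tested.

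The somatic isozymes were split. Of 11 tested, 5 (45.5%) were higher in sperm, 1 (9.09%) in oocyte and 5 were not called, with a median difference of 2.43. The shares over all genes tested were 37.0 and 15.5%. Ldhb was at 5008 and 1066 TPM in oocyte and 529 and 36.7 TPM in sperm, a difference of -4.03 (SE 1.53, limma adjusted p = 0.04). It was not called after quantile normalization, nor without any 1 library. Eno1 was at 120.01 and 184 TPM in sperm and 2.75 and 15.6 TPM in oocyte (difference 4.25, SE 1.09, limma adjusted p = 0.00665). Pkm was at 99.98 and 190 TPM in sperm and 4.89 and 35.9 TPM in oocyte. Pgam1 was at 43.6 and 288 TPM in sperm and 5.31 and 17.8 TPM in oocyte, and was not called after quantile normalization. Gapdh was at 5.67 and 4.49 TPM in sperm and 4.18 and 26.0 TPM in oocyte, and it was not called. No member kept its call without oocyte replicate 1 or 2.

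The genes that build the egg coat and drive oocyte growth were higher in oocyte. Of 13 tested, 11 (84.6%) were higher in oocyte, 0 in sperm and 2 were not called, against 15.5 and 37.0% called among all genes tested. The median difference was -4.83. Gdf9, a growth factor by which the oocyte acts on its follicle, was at 4176 and 15568 TPM in oocyte and 1.84 and 1.02 TPM in sperm, a difference of -11.72 (SE 1.16, limma adjusted p = 0.000109). Bmp15, its partner on the X chromosome, was at 141 and 160 TPM in oocyte and 0.09 and 0.11 TPM in sperm. The secreted oocyte genes Oosp1 and Oosp3 were at 653 and 249 TPM and at 366 and 184 TPM in oocyte, and below 2 TPM in sperm. Both oocyte libraries were the higher ones throughout. Zp3, whose promoter is printed above, was at 51.7 and 102 TPM in oocyte and 2.53 and 6.29 TPM in sperm. Zp1 and Zp2 were lower, at 15.1 and 52.4 TPM and at 26.0 and 11.2 TPM. The transcription factor gene Nobox was at 6.40 and 6.39 TPM in oocyte and 0 and 3.33 TPM in sperm, and it was not called, nor was Taf4b. Both were called after quantile normalization, which called all 13. Without sperm replicate 1 and without sperm replicate 2 the count was 3 and 4.

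The egg side of binding and activation was less one-sided. Of 11 tested genes, which include the 3 zona genes, 6 (54.5%) were higher in oocyte, 1 (9.09%) in sperm and 4 were not called. The shares over all genes tested were 15.5 and 37.0%. The median difference of the list was -3.50. Wee2, a kinase that holds and releases the meiotic block, was at 182 and 125 TPM in oocyte and 0.02 and 0.05 TPM in sperm (difference -7.20, SE 0.97, limma adjusted p = 0.000288). Izumo1r, the egg receptor known as Juno, was at 8.57 and 35.2 TPM in oocyte and 0.17 and 0.21 TPM in sperm. Astl, the protease that hardens the zona, was at 42.5 and 32.9 TPM in oocyte and 1.14 and 0.50 TPM in sperm. These genes had both oocyte libraries above both sperm libraries. The tetraspanin gene Cd81 went the other way, at 185 and 739 TPM in sperm and 4.25 and 2.98 TPM in oocyte (difference 6.34, SE 1.08, limma adjusted p = 0.000856). Cd81 is also made by many immune and epithelial cells, and the somatic marker sums given above were high in the same libraries. Their part was not tested. The related Cd9, which the egg needs for fusion, was at 41.1 and 16.0 TPM in sperm and 7.92 and 1.06 TPM in oocyte, and it was not called. Camk2g was at 70.8 and 461 TPM in oocyte and 43.7 and 34.9 TPM in sperm, and was not called either. Without sperm replicates 1 and 2 the count higher in oocyte was 2 and 2.

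The subcortical maternal complex lies under the egg membrane and is needed for the first cleavages. Of its 10 genes, 9 (90.0%) were higher in oocyte, against 15.5% of all genes tested, with a median difference of -4.26. Zbed3 alone gave most of the summed TPM of the complex. Nlrp4f was at 266 and 284 TPM in oocyte and 0.61 and 1.33 TPM in sperm (difference -7.15, SE 0.99, limma adjusted p = 0.000313). Khdc3 was at 458 and 14.2 TPM in oocyte and 4.61 and 1.17 TPM in sperm. Ooep was at 202 and 50.5 TPM against 0 and 3.49 TPM. Both oocyte libraries stood above both sperm libraries for each gene, but the oocyte libraries differed widely in Khdc3. Nlrp14 was not called on the TPM scale and was called after quantile normalization, as were the other 9. With 1 library left out, between 3 and 6 of the 10 were called, the fewest without sperm replicate 1.

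Genes that store, lengthen or remove maternal messages were higher in oocyte for 10 of 19 tested (52.6%), with 1 (5.26%) higher in sperm and 8 not called. The shares over all genes tested were 15.5 and 37.0%. The median difference of the list was -2.93. Btg4, an adaptor of the deadenylase that clears maternal messages, was at 3528 and 9910 TPM in oocyte and 2.07 and 1.84 TPM in sperm (difference -10.97, SE 1.13, limma adjusted p = 0.000109). Zar1, which binds stored messages, was at 946 and 4016 TPM against 0.70 and 7.64 TPM. Dazl, a germ cell RNA-binding protein, was at 166 and 1423 TPM against 1.13 and 2.41 TPM. Both oocyte libraries were above both sperm libraries for these genes. The deadenylase gene Cnot7 was at 783 and 777 TPM in oocyte and 17.0 and 74.2 TPM in sperm. The helicase gene Ddx6, called higher in sperm, was measured through a single-exon transcript of 995 bases. It was at 5.45 and 1.38 TPM in sperm and 0.26 and 0 TPM in oocyte, and it was not called after quantile normalization. Ybx2, an RNA-binding protein of both germ lines, was at 70.2 and 366 TPM in sperm and 22.0 and 22.0 TPM in oocyte, and was not called. The count higher in oocyte was 2 without sperm replicate 1, 3 without sperm replicate 2, 6 without oocyte replicate 1 and 5 without oocyte replicate 2.

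The machinery of meiosis was higher in oocyte for 16 of 24 tested genes (66.7%), with 1 (4.17%) higher in sperm and 7 not called. The shares over all genes tested were 15.5 and 37.0%. The median difference of the list was -3.92. Pttg1, the securin that holds sister chromatids together, was at 20150.0 and 1473 TPM in oocyte and 41.9 and 14.2 TPM in sperm (difference -7.74, SE 1.45, limma adjusted p = 0.00137). The checkpoint gene Mad2l1 was at 816 and 773 TPM against 1.47 and 1.99 TPM. Mos, the kinase behind the arrest at metaphase II, was at 89.9 and 543 TPM in oocyte and 0.08 and 0.56 TPM in sperm. The groups did not overlap in these genes, although Pttg1 was far higher in oocyte replicate 1 than in oocyte replicate 2. The cyclin gene Ccnb1 was at 532 and 373 TPM in oocyte and 5.29 and 2.23 TPM in sperm. Ccnb2 was at 367 and 560 TPM in oocyte and 25.0 and 352 TPM in sperm, and it was not called. Cdc20 was at 1145 and 1153 TPM in oocyte and 38.4 and 186 TPM in sperm, with an limma adjusted p of 0.0247.

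The partner kinase of the B cyclins, Cdk1, was called the other way. It was low in both gametes, at 4.87 and 4.50 TPM in sperm and 0.30 and 0.70 TPM in oocyte (difference 1.93, SE 0.68, limma adjusted p = 0.0285), and was not called after quantile normalization or without either oocyte replicate. Of the 24 genes, 5 and 7 were called higher in oocyte without sperm replicates 1 and 2, and 11 and 9 without oocyte replicates 1 and 2.

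Chromatin genes of the egg were higher in oocyte for 12 of 20 tested, with 3 higher in sperm, 5 not called and a median difference of -3.72. Among all genes tested, 15.5% were higher in oocyte and 37.0% were higher in sperm. H1foo, the oocyte linker histone, was at 12322 and 12737 TPM in oocyte and 1.95 and 1.20 TPM in sperm (difference -12.27, SE 1.13, limma adjusted p = 0.000109). Dppa3, which guards methylation in the zygote, was at 12586 and 3851 TPM against 1.67 and 1.48 TPM. Tet3, the dioxygenase of the zygote, was at 231 and 639 TPM in oocyte and 4.09 and 13.3 TPM in sperm. The oocyte libraries were the higher ones for all 3. The Polycomb gene Eed was at 817 and 235 TPM in oocyte and 6.72 and 8.88 TPM in sperm, and Uhrf1 at 66.0 and 1091 TPM against 5.81 and 38.8 TPM. The DNA methyltransferase gene Dnmt1 was at 59.8 and 39.6 TPM in oocyte and 7.36 and 22.4 TPM in sperm, and was not called.

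The chromatin genes higher in sperm were Ehmt2, Tet1 and Tet2. Ehmt2 was at 47.9 and 77.7 TPM in sperm and 0.50 and 0.14 TPM in oocyte (difference 5.57, SE 0.96, limma adjusted p = 0.000916). Its transcript has 7 exons and 1029 bases and starts within the gene, at 34908748 on chromosome 17, where the annotated gene starts at 34898469. Tet1 and Tet2 were measured mainly through single-exon transcripts of 810 and 713 bases, and were not called after quantile normalization. Of the 20 genes, 3 to 5 were called higher in oocyte with 1 library left out, the fewest without sperm replicate 2.

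The multigene families of the oocyte showed the largest median difference of the lists, at -8.01. Of 14 genes of the Obox, Oog, Oas1 and Omt2 families, 13 (92.9%) were higher in oocyte, against 15.5% of all genes tested. The other gene, Obox3, was not called. Omt2a was at 19941 and 771 TPM in oocyte and 3.36 and 0.88 TPM in sperm (difference -10.42, SE 1.43, limma adjusted p = 0.000307). Omt2b was at 18880.0 and 841 TPM against 2.95 and 1.29 TPM. Obox2 was at 2353 and 487 TPM against 0.50 and 0.05 TPM, and Oas1d at 2191 and 805 TPM against 0.91 and 3.70 TPM. Both oocyte libraries were above both sperm libraries for each gene, and the sum of the family was 49150.3 TPM in oocyte replicate 1 and 4781 TPM in oocyte replicate 2. Members of each family are close copies of one another, between which reads can be split, so the level of a single member is uncertain. Without either sperm library 5 of the 14 were called, and without either oocyte library 13 were.

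**Figure D4:**
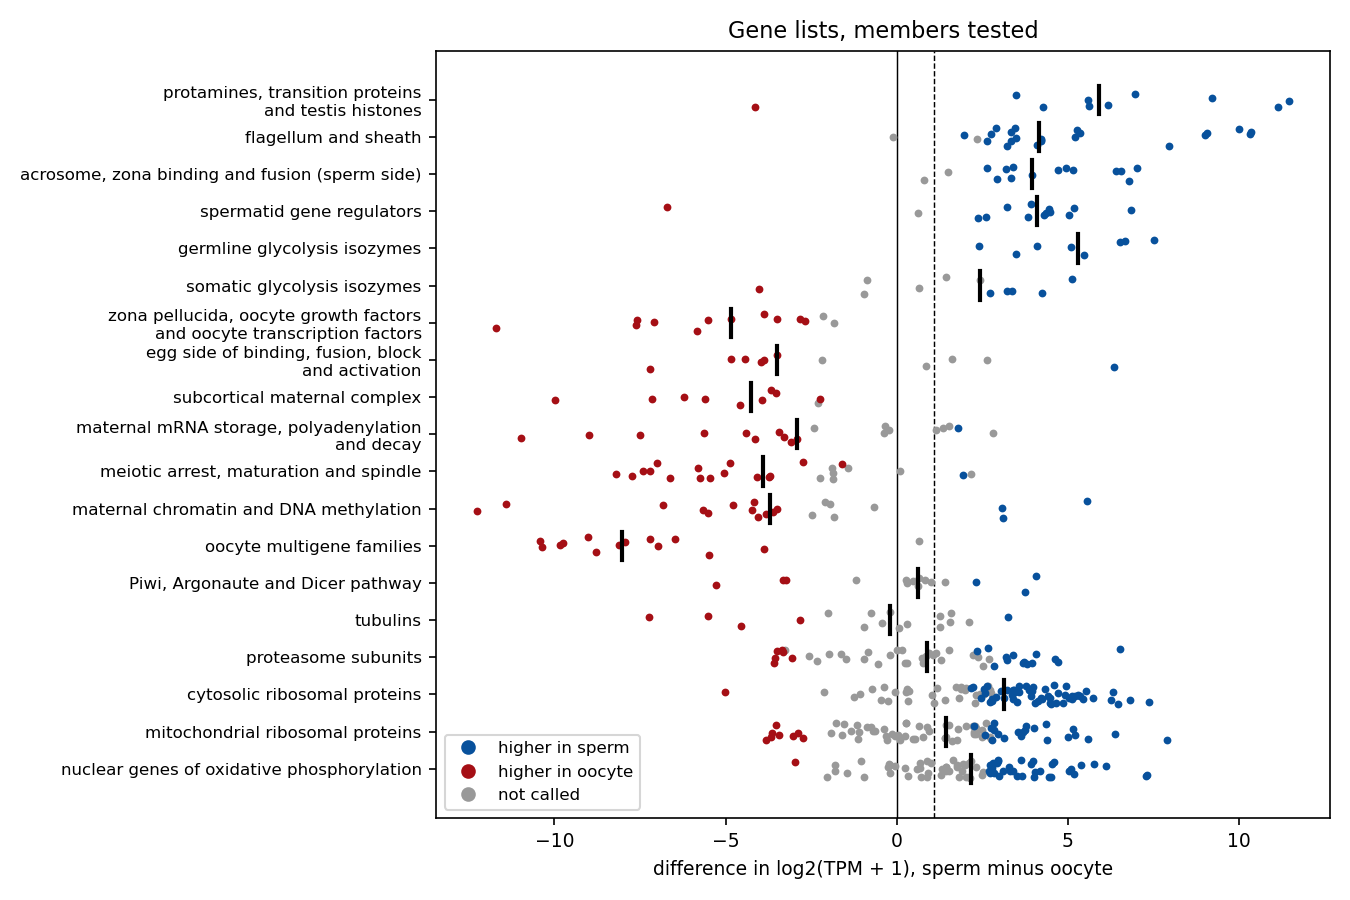
Difference in log2(TPM + 1), sperm minus oocyte, of each tested member of the gene lists, 1 point per gene, coloured by the call. Black bars are list medians, the solid line is 0 and the dashed line is the median of all genes tested, 1.08. Lists of sperm structure lie to the right and maternal lists to the left, with medians from 5.90 for protamines and histones to -8.01 for the oocyte families.

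Machinery that both germ lines use was mixed. Of 15 tested genes of the Piwi, Argonaute and Dicer pathways, 3 (20.0%) were higher in sperm, 3 (20.0%) in oocyte and 9 were not called, against 37.0 and 15.5% of all genes tested. The median difference was 0.62 and turned to -0.54 after quantile normalization. Dicer1, which the mouse oocyte needs for its own small interfering RNAs, was at 191 and 58.9 TPM in oocyte and 1.68 and 1.87 TPM in sperm (difference -5.28, SE 1.02, limma adjusted p = 0.00169). Ago3 was at 44.3 and 97.9 TPM in oocyte and 1.96 and 14.1 TPM in sperm. Mael, a gene of the piRNA pathway, was at 54.1 and 442 TPM in sperm and 3.40 and 18.4 TPM in oocyte. Tarbp2 and Piwil2 were the others higher in sperm and Asz1 the other higher in oocyte. With 1 library left out, at most 2 were called higher in sperm and at most 1 in oocyte.

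Tubulins gave 1 of 17 genes (5.88%) higher in sperm and 4 (23.5%) higher in oocyte, against 37.0 and 15.5% of all genes tested, with a median difference of -0.20. Tubg2, a gamma tubulin, was at 278 and 387 TPM in oocyte and 0.81 and 1.60 TPM in sperm (difference -7.24, SE 1.00, limma adjusted p = 0.000312). The other gamma tubulin gene, Tubg1, was at 45.8 and 72.6 TPM in oocyte and 10.6 and 17.4 TPM in sperm, and was not called. Tubb3 was at 123 and 515 TPM in oocyte and 4.36 and 4.75 TPM in sperm. Tuba1b, higher in sperm at 49.8 and 15.9 TPM against 3.04 and 1.30 TPM, was not called after quantile normalization. The most abundant beta tubulin of sperm, Tubb4b, overlapped between the gametes, at 108 and 30.9 TPM in sperm and 41.1 and 107 TPM in oocyte. Without sperm replicates 1 and 2 the count higher in oocyte was 1 and 1.

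Of 46 proteasome genes tested, 14 (30.4%) were higher in sperm and 6 (13.0%) in oocyte, near the 37.0 and 15.5% of all genes tested. Their median difference was 0.89. Among those higher in oocyte were Psmd4 (140 and 462 TPM against 68.2 and 12.7 TPM in sperm) and Psmg1 (251 and 114 TPM against 8.66 and 20.1 TPM). Psmd4 was not called after quantile normalization. Psmb4, higher in sperm, was at 67.4 and 688 TPM against 14.2 and 10.03 TPM in oocyte. Genes of the immunoproteasome and its activator, which were chosen after their values were seen, were among those higher in sperm. Psmb8 was at 43.7 and 315 TPM in sperm and 0.35 and 0.26 TPM in oocyte (difference 6.51, SE 1.11, limma adjusted p = 0.000849), and Psmb9, Psmb10, Psme1 and Psme2 were called as well. These genes are made chiefly by immune cells and after interferon, and the leukocyte markers that were high in the same libraries are given above. Their part was not tested. Without each library in turn, between 1 and 7 of the 46 were called higher in sperm and 0 in oocyte, the fewest in sperm without oocyte replicates 1 and 2.

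Of 87 cytosolic ribosomal protein genes, 56 (64.4%) were higher in sperm and 1 in oocyte, against 37.0 and 15.5% of all genes tested, with a median difference of 3.14. Their summed TPM was 15112 and 13391 in sperm and 3164 and 3548 in oocyte. Rpl13 was at 2262 and 5369 TPM in sperm and 33.5 and 26.8 TPM in oocyte (difference 6.81, SE 1.22, limma adjusted p = 0.00114). Rps27 was at 1413 and 165 TPM in sperm and 1.66 and 2.15 TPM in oocyte, and its close relative Rps27l at 92.5 and 27.6 TPM in sperm and 1179 and 2375 TPM in oocyte. The paralogs thus went in opposite directions, Rps27l by -5.02 (SE 1.24, limma adjusted p = 0.00572) and Rps27 by 7.39 (SE 1.17, adjusted p = 0.000583). The call of Rps27 was kept without each library in turn and that of Rps27l was lost without any 1 of them. After quantile normalization 38 of the 87 were higher in sperm and 2 in oocyte. Without oocyte replicates 1 and 2, 13 and 6 were higher in sperm, and without sperm replicates 1 and 2, 20 and 21. Many ribosomal protein genes have processed pseudogenes with which reads can be shared. The somatic markers given above were also higher in sperm than in oocyte, and their part was not tested.

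Mitochondrial ribosomal protein genes were higher in sperm for 22 of 79 (27.8%) and higher in oocyte for 8 (10.1%). Both shares lie below the 37.0 and 15.5% of all genes tested, and the median difference of 1.44 was near the 1.08 of all genes. Those higher in oocyte were Mrpl9, Mrpl18, Mrpl21, Mrpl32, Mrpl47, Mrps14, Mrps23 and Mrps36, with levels from 25.2 to 368 TPM in oocyte and from 1.86 to 42.3 TPM in sperm. Each of these 8 calls was lost without any 1 library. Mrps24 was at 1603 and 327 TPM in sperm and 87.7 and 12.8 TPM in oocyte, and Mrpl54 at 182 and 696 TPM against 10.7 and 7.45 TPM. Both were higher in sperm, with limma adjusted p-values of 0.0141 and 0.00263. Without oocyte replicates 1 and 2, 2 and 2 of the 79 were called higher in sperm, and without sperm replicates 1 and 2, 12 and 13.

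Nuclear genes of oxidative phosphorylation were higher in sperm for 36 of 79 (45.6%) and in oocyte for 1, with a median difference of 2.16. Over all genes tested 37.0% were higher in sperm and 15.5% in oocyte, and the median difference was 1.08. The share of the list in oocyte, 1.27%, was thus far below that of all genes. The somatic markers given above were high in the same libraries, and their part was not tested. Uqcrq was at 392 and 3179 TPM in sperm and 25.9 and 14.6 TPM in oocyte (difference 5.77, SE 1.26, limma adjusted p = 0.00304). Cox6a1 was at 307 and 2059 TPM against 75.3 and 29.3 TPM. Cox5a, the member with the highest mean TPM over both gametes, was at 312 and 2253 TPM in sperm and 619 and 1541 TPM in oocyte. Its groups overlapped and it was not called, and the same held for Cox8a, at 697 and 1511 TPM in sperm and 1008 and 1349.9 TPM in oocyte. Uqcrc2, the 1 gene higher in oocyte, was at 117 and 64.8 TPM there and 20.6 and 4.74 TPM in sperm. After quantile normalization 19 of the 79 were higher in sperm. Without oocyte replicates 1 and 2 the count was 4 and 4, and without sperm replicates 1 and 2 it was 9 and 14.

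Genes on the Y chromosome checked the sex of the labels. Of the 7 in the list, Ddx3y and Eif2s3y were found. Eif2s3y was at 56.8 and 2.36 TPM in sperm, Ddx3y was at 17.7 and 1.32 TPM in sperm, and both were listed at 0 in both oocyte libraries. Sperm replicate 1 held more of each. Both were called higher in sperm by limma, but neither was called without oocyte replicate 1 or without oocyte replicate 2, and Ddx3y was not called after quantile normalization. In all, 7 tested genes lay on the Y chromosome, and each was called higher in sperm, against 37.0% of all genes tested. Eggs carry no Y chromosome, so this direction was largely set in advance. The X chromosome held 2.83% of the genes higher in sperm, 3.51% of those higher in oocyte and 2.99% of the genes tested.

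Beyond their lists, the called genes differed in their annotation. LincRNAs were 6.25% of the genes higher in oocyte, 2.59% of those higher in sperm and 2.84% of the genes tested. Antisense genes were 2.18% of those higher in sperm and 1.24% of those higher in oocyte. Of the genes higher in oocyte, 51.9% had at least 2 merged transcripts, against 32.7% of those higher in sperm and 41.5% of the genes tested. The median spliced length was 1424 bases in genes higher in oocyte, 1296 in genes higher in sperm and 1374 in genes tested. Protein-coding genes made up 89.8% of those higher in sperm and 88.4% of those higher in oocyte. These are descriptions with no test.

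Single transcripts leaned the same way on the TPM scale. Of 17421 merged transcripts tested, 5862 (33.6%) were higher in sperm and 2990 (17.2%) higher in oocyte by limma at an adjusted p under 0.05. After quantile normalization the larger group was again that of oocyte, with 3584 transcripts higher in sperm and 3837 higher in oocyte. Transcripts outside annotated genes leaned further to sperm on the TPM scale. Of 2724 such transcripts 45.1% were higher in sperm and 15.3% in oocyte, and 73.6% had a single exon. Of the 14697 transcripts with a gene, 31.5% were higher in sperm and 17.5% in oocyte, and 13.6% had a single exon. Without oocyte replicate 1 or 2, 0 transcripts were called in either direction, while 5683 and 5393 had an unadjusted limma p under 0.05.

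In 97 genes at least 1 transcript was called higher in sperm and another higher in oocyte. Usage, the share of a gene's TPM that 1 isoform holds, was therefore tested in 1480 genes with 3848 isoforms. In 304 genes 509 isoforms (13.2% of those tested) differed in usage by over 0.1 at a limma adjusted p under 0.05, 278 with higher usage in sperm and 231 with higher usage in oocyte. Of these, 306 isoforms in 191 genes differed by over 0.5. Isoforms of 1 gene are not independent. The smallest limma adjusted p was 0.0186. With any 1 of the 4 libraries left out, 0 isoforms were called, while 845 to 1157 had an unadjusted limma p under 0.05.

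The 191 genes were chosen for a large usage difference, and this choice by itself makes a change of the leading isoform likely. The count of such changes is therefore a description and no separate finding. The leading isoform was a different one in sperm and oocyte in 187 of the 191 genes. The leading isoforms started over 300 bases apart in 115 of them and ended over 300 bases apart in 85, with 54 genes in both groups and 41 in neither. They shared at least 1 intron in 120 genes and no intron in 26, and 1 of them had a single exon in the other 41.

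Grn, which encodes the secreted factor progranulin, used different first exons. The isoform that starts at 102430439 on chromosome 11 was at 275 and 101 TPM in sperm and 0 and 0.75 TPM in oocyte. The isoform that starts 12384 bases upstream, at 102418055, was at 0 in both sperm libraries and at 49.8 and 109 TPM in oocyte. The usage of the first was thus 100% in both sperm libraries and 0 and 0.68% in the oocyte libraries, and the change of its log2 ratio to the other isoforms was 13.21 (SE 0.85, limma adjusted p = 0.0186). Both isoforms have 13 exons and share 11 introns.

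Vdac2, a channel of the outer mitochondrial membrane, followed the same form. Its sperm isoform, from 21831263 on chromosome 14, was at 70.8 and 441 TPM in sperm and 0.53 and 0.14 TPM in oocyte. The oocyte isoform, which starts 6029 bases upstream, was at 24.3 and 6.67 TPM in oocyte and 0 and 1.56 TPM in sperm. It held 97.9 and 98.0% of the gene in oocyte and 0 and 0.35% in sperm (adjusted p = 0.0214 by limma). Csnk2b, the regulatory subunit of casein kinase 2, and Brix1, a gene of ribosome assembly, also had starts apart, by 524 and 1722 bases. In Csnk2b the isoform of sperm held 97.7 and 96.1% in sperm and 5.59 and 0.27% in oocyte, where 2 other isoforms shared the rest. In Brix1 the isoform of sperm held 83.3 and 95.7% in sperm and 2.09 and 0.34% in oocyte.

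Thumpd1 differed in an intron. Both isoforms have the same ends, at 119715090 and 119720792 on chromosome 7. The sperm isoform, of 5 exons, was at 37.3 and 134 TPM in sperm and 0 in both oocyte libraries. The oocyte isoform, of 4 exons, keeps an intron of 349 bases (chr7:119715351-119715699) and was at 169 and 588 TPM in oocyte and 0 and 0.17 TPM in sperm. Usage was 100% in both oocyte libraries and at most 0.12% in sperm for the isoform that keeps the intron (limma adjusted p = 0.0186). Of the named genes this was the 1 in which a kept intron told the isoforms apart.

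In Tmod3, a gene that caps actin filaments, the sperm signal came from a single-exon transcript of 1057 bases at the start of the gene. It was at 864 and 267 TPM in sperm and 0.50 and 0 TPM in oocyte. The spliced transcript of 10 exons was at 7.85 and 2.52 TPM in sperm and 8.91 and 24.3 TPM in oocyte. The usage of the single-exon transcript was 98.9 and 98.9% in sperm and 5.28 and 0% in oocyte.

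**Figure D5:**
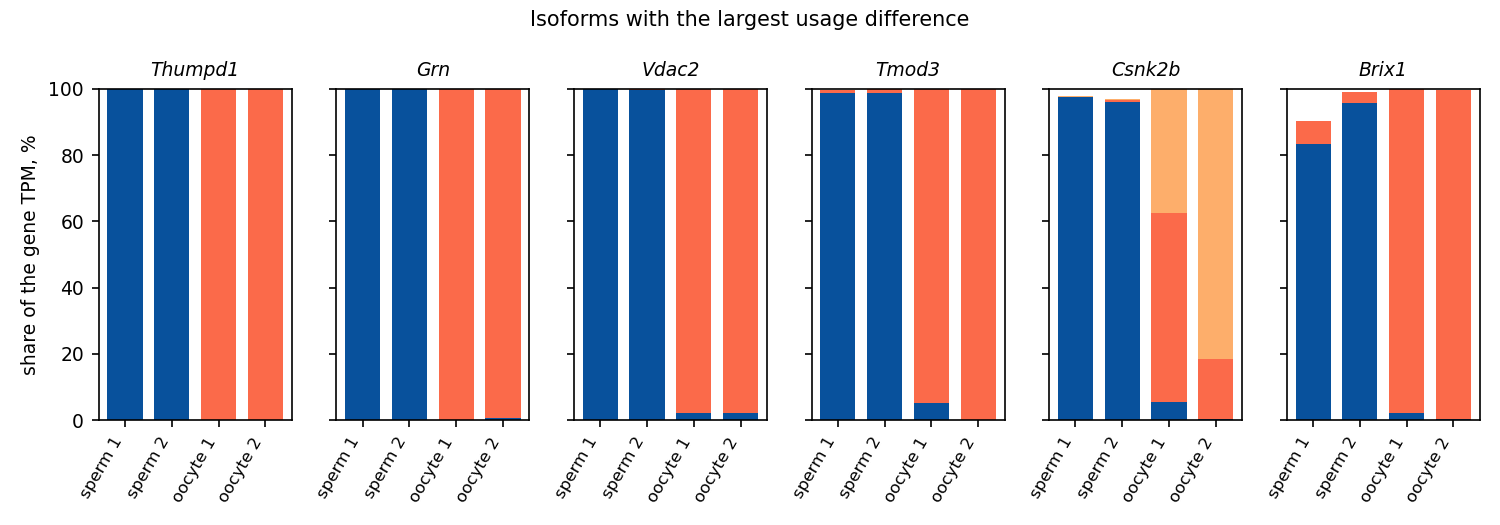
Share of the gene's TPM (%) held by the named isoforms in each library for the 6 genes with the largest usage differences. Blue is the leading isoform of sperm, and red and orange are those of oocyte. In Grn blue fills 100% in both sperm libraries and 0 and 0.68% in the oocyte libraries, and white gaps are isoforms not named.

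The long-read pools hold transcripts built from the long reads of each sample. A transcript can cover only a part of its gene, as was seen for Brdt and Ehmt2 in the merged set. The sperm pool held transcripts of 11 leukocyte, 7 epididymal, 5 stromal and 4 erythroid markers, and the oocyte pool held 0 of these, so some transcripts of the sperm pool are of genes that mark other cells. The part of such cells in the isoforms of sperm, by long reads or by usage, was not tested. The sperm pool held 8521 transcripts, of which 7513 were tied to 5349 genes. The oocyte pool held 7034 transcripts, of which 6345 were tied to 3744 genes. Of these genes, 1534 had transcripts in both pools, 3815 in sperm only and 2210 in oocyte only. Sperm had 1.40 isoforms per gene and oocyte 1.69, and the median transcript was 1259 bases long in sperm and 826 in oocyte. With 1 pool per gamete there is no replicate check. Intervals are Wilson 95% intervals over genes or introns and cover counting error only. A gene that is missing in a pool may lie below the depth of its reads.

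Genes found in both pools mostly shared a splice form. Of 1362 genes with multi-exon transcripts in both pools, 1194 (87.7%, interval 85.8 to 89.3%) had a pair with the same intron chain or with 1 chain contained in the other. A pair with the same chain was found in 66.1% (63.5 to 68.5%), so the share depends on this choice. In 235 genes (17.3%, 15.3 to 19.4%) no sperm and oocyte transcript started within 300 bases of each other. In 52 genes (3.82%, 2.92 to 4.97%) the gametes shared no intron. The part of incomplete transcripts in these shares was not tested.

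The most abundant genes with no shared chain were Lman2, Mff, 1500011B03Rik, Ndufb2 and Lsm2, and none of these 5 differed in level between the gametes by the test. Lman2, a cargo receptor of the secretory pathway, was at 222 and 1507 TPM in sperm and 1878 and 593 TPM in oocyte. Its pools each gave 1 transcript of 8 exons with the same start, and they shared 6 introns. These transcripts were 1242 bases long in sperm and 1237 in oocyte, and ended at 55346742 and 55346748 on chromosome 13. Introns count as shared only if both boundaries match to the base, so a shift of a few bases also breaks a chain. Mff, which recruits the fission machinery to mitochondria, was at 131 and 548 TPM in sperm and 201 and 845 TPM in oocyte, with 5 transcripts in sperm, 4 in oocyte and 11 shared introns. 1500011B03Rik was at 419 and 1553 TPM in sperm and 82.8 and 444 TPM in oocyte and shared no intron. In the other 2 genes the gametes shared 2 introns (Ndufb2) and 3 introns (Lsm2). The Ndufb2 transcripts had 4 exons in each pool and were 457 bases long in sperm and 450 in oocyte.

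The 3' ends of shared last exons differed in both directions. Of 1176 last introns found in both pools, the longest last exon was at least 100 bases longer in oocyte in 87 (7.40%, 6.04 to 9.04%) and at least 100 bases longer in sperm in 131 (11.1%, 9.47 to 13.1%). With the median last exon in place of the longest, the shares were 10.97 and 12.2%. Among the 882 last introns of genes with a mean of at least 10 TPM in both gametes, 62 were longer in oocyte and 97 in sperm. The longest last exon had a median of 426 bases in sperm and 401 bases in oocyte.

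The 5 largest differences among those abundant genes were all longer in sperm. In Carhsp1, a gene of an RNA-binding protein, the last exon reached 2523 bases in sperm and 401 in oocyte. It reached 2594 against 646 bases in Arl4a and 2285 against 341 bases in Serf2. In Rab10, a GTPase of membrane traffic, it was 2139 against 441 bases, and in the chromatin gene Hmgb1 it was 1682 against 147 bases. The median last exon of Carhsp1 was 411 bases in sperm, over 3 transcripts, and 400.5 bases in oocyte, over 2 transcripts. With 2 transcripts in sperm and 1 in oocyte, it was 1802.5 against 646 bases in Arl4a and 1312.5 against 341 in Serf2. In Hmgb1, with 4 in sperm and 1 in oocyte, it was 489.5 against 147 bases. Rab10 had 1 transcript in each pool. The longest of more transcripts can be longer for that reason alone.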

How the data were processed

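RNA of 2 sperm and 2 oocyte libraries was sequenced on an Illumina NovaSeq in read pairs, and 1 pool per gamete on a PacBio Sequel. Per the study's methods and labels, the authors collapsed long reads to transcripts on mm10, merged those of all stages into 1 set with Cufflinks' merging tool and estimated TPM for it with Salmon, and deposited these TPM values for each library. Other tools named in the submitters' processing notes are GSNAP and STAR. The merged set holds only transcripts found by long reads, so a gene missed there has no value.

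From these files, merged transcripts were tied to GENCODE vM21 genes by exon overlap on the same strand (18333 of 22612 transcripts, 10920 genes), and TPM was summed per gene. A transcript over 2 or more genes (954 of them) counts only for the gene with the most overlapping bases. Genes or transcripts with at least 1 TPM in 2 of the 4 libraries were tested as log2(TPM + 1) with limma 3.58.1 (R 4.3.3; empirical Bayes with a trend, Benjamini-Hochberg adjustment over all features, called at 0.05), and fold changes on this scale understate those of low genes. Usage was tested without a trend on the log2 ratio of an isoform to its gene's other isoforms, in genes of at least 5 TPM in all 4 libraries and for isoforms of a mean usage of at least 0.05. The scripts were tested on simulated data. Tables and figures used Python 3.11.15, pandas 2.3.3, numpy 2.4.6, scipy 1.17.1 and matplotlib 3.10.9. Promoters came from a RefSeq table, which had a window for 7549 of the 9931 genes tested.

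Named genes were the 10 highest by mean TPM in each gamete, the 10 largest called differences in each direction whose groups did not overlap, and for each list the members highest in mean TPM and those called against its main direction. Named isoforms were those of the 6 genes with the largest usage differences, and named long-read genes the 5 most abundant or the 5 with the largest difference. Other list members are given as examples chosen after their values were seen. Members and gene lists were chosen with earlier results of these data known. The study's methods describe 2 batches collected per stage. The labels do not say that the replicates came from separate animals, so p-values measure only the spread between these samples. Alternatives were the pseudocount, the filter, the scaling, the libraries in the fit, the replicate block, transcripts over several genes and each library left out. The strain of the males is spelled in 2 ways in the sources. The 10 embryo libraries served only in alternatives.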

Additional observations from a re-analysis of the deposited data

How the results depend on the processing

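Quantile normalization turned the larger group from sperm to oocyte. It gave 2012 genes and 3584 transcripts higher in sperm, against 3670 and 5862, and 2133 genes and 3837 transcripts higher in oocyte, against 1537 and 2990. With no filter on low values 3655 transcripts were higher in sperm and 1923 in oocyte. With 1 library left out, genes higher in sperm ranged from 487 to 2750, genes higher in oocyte from 237 to 578, transcripts higher in sperm from 0 to 4361, transcripts higher in oocyte from 0 to 325 and usage differences were 0 each time. Such fits have 3 libraries. Where 0 were called, limma gave 5393 to 5683 transcripts and 845 to 1157 isoforms with an unadjusted p under 0.05, and the lowest adjusted p-values were 0.0718 and 0.0702. The 509 usage differences became 1106 with all 14 libraries in the fit, 776 with those weighted by stage and 245 in genes of at least 20 TPM. The cause of these moves was not tested. The share of genes with a common intron chain was 66.1% for the same chain and 81.3% with single-exon transcripts, against 87.7%. With a distance of 1000 bases 15.1% of genes shared no start, and the share of last exons longer in oocyte was 2.89% at 500 bases and 10.97% by the median. Of the 123 named genes 107 were called. Under settings other than leaving out a library they kept the call in 934 of 955 values and lost it in 21, and with a library left out they kept it in 217 of 428 and lost it in 211. No called value of a named gene changed sign. The 16 named genes that were not called gained a call in 18 of 144 values. Sperm and oocyte replicates share numbers that the labels tie to no batch or animal. With the number as a replicate block, 3880 genes were higher in sperm and 1944 in oocyte, 6418 and 3591 transcripts, and 756 isoforms differed in usage. The deviations of equally numbered samples had r = 0.24 over 9931 genes, in 2 pairs, so the numbers are not taken as a pairing. TPM values carry no read numbers, so the counting error of genes near 1 TPM is not given.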
